A study of Homo sapiens with 6 samples.

Results

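The replication-dependent H2A and H2B genes encode the histone pair that forms the H2A-H2B dimer of the nucleosome in dividing cells. They were taken by gene symbol from a list, with the table's Ensembl identifiers mapped to symbols, and all 33 listed genes (16 for H2A and 17 for H2B) were among the 20289 genes of the table. The study profiled ribosome footprints (mRNA fragments kept from nuclease by the ribosome on them) in RKO cells, a human colorectal cancer line. The 3 libraries labelled shControl came from cells with a control hairpin, which the labels call WT, and the 3 labelled shTRMT6 from cells with knockdown of TRMT6. TRMT6 is a subunit of the enzyme that methylates adenosines in the T loop of transfer RNA. The labels give neither the hairpin's sequence nor the time after its introduction, and do not say whether each line was a clone or a pool. Whether replicate libraries stem from separate cultures is not stated either, so p-values here reflect spread among libraries, which may be technical. The labels do not spell out the column names; columns beginning NC were read as shControl and those beginning SH as shTRMT6.

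Each nucleosome wraps DNA around an H3-H4 tetramer flanked by a pair of H2A-H2B dimers, and cells make these histones mostly in S phase, from many nearly identical gene copies that lie in clusters. Their mRNAs are the textbook exception to polyadenylation: most end in a conserved stem-loop that is bound by SLBP, the stem-loop binding protein, and are degraded when DNA synthesis stops. Many H2A and H2B genes lie head to head and share a promoter region, in which the octamer bound by OCT1 is a known element of H2B genes. The values are FPKM, footprint fragments scaled by gene length and library size, so they follow the amount of mRNA and the number of ribosomes on each mRNA together. A change in mRNA and a change in its translation cannot be told apart here, nor can fewer cells in S phase from fewer histone footprints per cell.

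The members form 3 clusters on chromosome 6 and 2 on chromosome 1 (GENCODE annotation of GRCh38; the build behind the deposited values is not given in the sources used here). The first on chromosome 6, chr6:26033176-26273356, held 12 members, from H2AC4 to H2BC10. The second, chr6:27125897-27147515, held 4, and the third, chr6:27807444-27893843, held 9. On chromosome 1 the first cluster, chr1:149782689-149887916, held 6 members and the second, chr1:228456979-228460470, held H2AW and H2BU1. Among members with a RefSeq promoter, 10 H2A-H2B pairs had starts that faced away from each other at most 500 bases apart. In these pairs 193 to 247 bases lay between the starts. The regions between 3 such pairs are printed from RefSeq promoters of GRCh38.p14, plus strand, because they stand for a pair low in both genes, a pair on chromosome 1 and the pair with the smallest changes. Capitals mark the octamer ATTTGCAT, the TATA box TATAAA and the CCAAT box on either strand; they lie at chr6:26216689-26216920, chr1:149886683-149886917 and chr1:228457874-228458102:
H2BC8/H2AC8: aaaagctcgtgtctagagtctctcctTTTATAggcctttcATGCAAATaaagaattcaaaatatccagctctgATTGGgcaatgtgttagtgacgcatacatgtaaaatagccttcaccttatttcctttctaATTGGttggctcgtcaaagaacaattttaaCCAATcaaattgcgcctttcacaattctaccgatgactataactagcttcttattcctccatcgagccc
H2BC21/H2AC20: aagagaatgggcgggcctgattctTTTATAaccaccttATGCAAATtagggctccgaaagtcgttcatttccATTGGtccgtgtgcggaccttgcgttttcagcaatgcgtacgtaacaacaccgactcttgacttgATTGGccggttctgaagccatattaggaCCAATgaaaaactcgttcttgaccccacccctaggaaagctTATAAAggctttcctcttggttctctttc
H2AW/H2BU1: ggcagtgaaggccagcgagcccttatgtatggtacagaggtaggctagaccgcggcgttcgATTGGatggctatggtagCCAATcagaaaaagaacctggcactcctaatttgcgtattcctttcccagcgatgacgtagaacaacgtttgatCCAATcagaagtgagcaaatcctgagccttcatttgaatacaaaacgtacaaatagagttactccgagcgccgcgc
The first and second of these regions held the octamer and a TATA box, and the region between H2AW and H2BU1 held neither exact motif but 3 CCAAT boxes. In the 250 bases before the start, searched on both strands, the octamer was found for 10 of 15 H2A and 13 of 17 H2B members, against 1.63% of 35116 promoters. TATAAA was found for 11 of 15 and 11 of 17, against 10.7%, and CCAAT for 15 of 15 and 17 of 17, against 32.0%. In the 10 pairs this window covers the whole region between the starts, so a motif there was counted for both genes. The H2A and H2B counts are therefore not separate. RefSeq promoters matched 32 of the 33 members, and H2AC12 had no entry. H2BC12 (chr6:27146418-27146798, minus strand) and H2AC12 (chr6:27147129-27147515, plus strand) also lie head to head but are for this reason not among the 10 pairs. The motif matches describe letters in a window, not binding.

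The 3′ stem-loop was looked for in annotated 3′ ends, since it is the element these mRNAs share in place of a poly(A) tail. It was found in 18 of the 19 members with an annotated 3′ end, between 23 and 67 bases after the stop codon. The exception was H2BC11. Some annotated 3′ ends held AATAAA, the hexamer of poly(A) signals, among them those of H2AC6, H2AC11, H2BC4, H2BC5 and H2BC11. Those of others, such as H2AC8 and H2BC8, did not. The stem-loops had 3 forms. Capitals mark bases that differ from the form of the first line, which 14 members carried:
H2AC8 and 13 others: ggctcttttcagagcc
H2BC4, H2BC5 and H2BC7: ggctcttttAagagcc
H2AC11: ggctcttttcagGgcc
The 3 H2B members with the second form had log2 fold changes of -2.15, -2.09 and -1.84, and H2AC11 one of -1.85, within the range of the members with the first form.

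TRMT6 itself stood at 57.6, 58.4 and 95.3 FPKM with the control hairpin and at 20.7, 21.9 and 24.1 with knockdown, with no overlap (log2 fold change -1.58 ± 0.27, SE; limma adjusted p = 0.00301). The epithelial markers KRT8, KRT18, EPCAM and CDX2 were detected, and CDH1 and VIL1 were listed at 0 in every library. KRT19 was at 1.52 FPKM in shControl 1 and at 0 in all other libraries. Of 7 markers of other cell types, PTPRC, CD3E and DES were at 0 as well, and COL1A1, COL3A1 and PECAM1 were below 1 FPKM in every library. CD68, a lysosomal protein used as a macrophage marker, was at 740, 683 and 559 FPKM against 594, 754 and 575, with overlapping groups. Steps in the low values put depth at roughly 2608000 to 3906000 footprints for shControl and 2581000 to 4057000 for shTRMT6. Genes of the mitochondrial genome took 0.790% to 2.02% of the control FPKM sums and 7.74% to 13.7% of the knockdown sums. Their part in the results on histone genes was not tested, but with every library rescaled without them 27 of 30 tested members were lower, against 6.11% of all tested genes (adjusted p under 0.05).

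Of the 33 members, 30 reached 1 FPKM in at least 3 libraries and were tested. In the shTRMT6 libraries 28 of the 30 had lower footprint levels (limma on log2(FPKM + 1), Benjamini-Hochberg adjusted p under 0.05 over 11566 genes) and 0 had higher ones. Over all tested genes, 9.04% were lower and 26.5% higher. The 28 comprised 13 of 15 H2A and 15 of 15 H2B genes, and the same number, 28 of 30, had all 3 knockdown libraries below all 3 control libraries, against 14.3% of all tested genes. The median log2 fold change was -1.88 for H2A and -2.09 for H2B, beside 0.39 over all tested genes, and 26 of the 30 were below -1.5. With libraries centred on their median 30 of 30 were lower, against 19.7% of all tested genes, and the median over all genes moved from 0.39 to -0.067. With quantile normalization 30 of 30 were lower, against 14.7%.

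**Figure D1:**
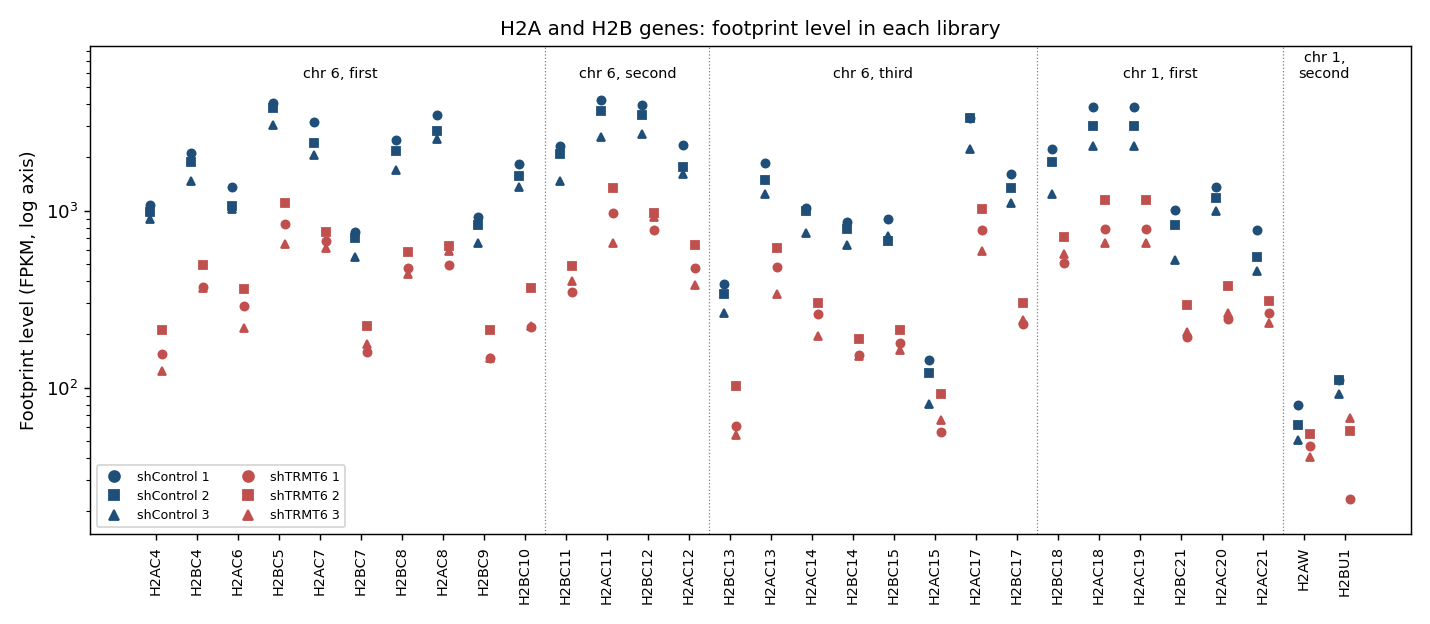
Footprint level (FPKM, log axis) of each tested H2A and H2B member in the 3 shControl and 3 shTRMT6 libraries, ordered along the chromosomes; points are libraries. For 28 of the 30 tested members shown every knockdown point lies below every control point, and for H2AC15 and H2AW the groups overlap.

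Among the H2A genes, H2AC11 had the highest control level: 4208, 3655 and 2595 FPKM in shControl 1, 2 and 3, against 966, 1336 and 652 in shTRMT6 1, 2 and 3 (values below keep this order). H2AC17 was at 3321, 3322 and 2236 FPKM against 779, 1021 and 590. H2AC18 and H2AC19 were at 3843, 2995 and 2327 FPKM against 789, 1141 and 655. In these 4 genes the highest knockdown library stayed below the lowest control library, and log2 fold changes lay between -1.90 and -1.83. H2AC18 and H2AC19 encode the same protein from identical coding sequences and had equal values in every library, so they are not separate measurements. Whether each value holds all of their shared footprints or a part of them is not given in the sources used here. Counting the equal copies once left every class and cluster result in the same direction.

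H2AC4 changed most among the H2A genes. Its FPKM was 1078, 977 and 900 against 155, 211 and 124, so the groups lay far apart. The means, 985 ± 89.5 and 163 ± 43.9 (SD, n = 3), were 6.03-fold apart, with a log2 fold change of -2.62 ± 0.24 (SE; limma adjusted p = 0.000474). H2AC8 was next, at 3465, 2817 and 2525 FPKM against 495, 635 and 594, a log2 fold change of -2.35 ± 0.21. H2AC7, H2AC12, H2AC13 and H2AC14 were lower too, with log2 fold changes between -1.95 and -1.70, and the means of H2AC6, 1145 ± 187 and 288 ± 72.4 FPKM, were 3.97-fold apart. H2AC20, on chromosome 1, was at 1357, 1177 and 999 FPKM against 244, 374 and 264 (-2.01 ± 0.23).

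At the other end stood 3 H2A genes with small changes. H2AC21 fell from 772, 543 and 456 FPKM to 266, 307 and 232, a log2 fold change of -1.11 ± 0.24 (limma adjusted p = 0.0081). The highest knockdown library of H2AC21 was still below its lowest control library. H2AC15 was at 143, 122 and 80.8 FPKM against 56.4, 91.6 and 65.8, so the groups overlapped (-0.68 ± 0.29, limma adjusted p = 0.0909). Its call depended on settings: it passed with median scaling (limma adjusted p = 0.0131), quantile normalization (0.0384), level and length trends removed (0.0463) or without shControl replicate 3 (0.0185). H2AW, at 79.4, 61.7 and 50.5 FPKM against 46.9, 54.6 and 40.3, overlapped too (-0.41 ± 0.25, limma adjusted p = 0.228). It passed with median scaling (limma adjusted p = 0.0261) and with quantile normalization (0.0497).

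All 15 tested H2B genes were lower. H2BC5 had the highest level, 4042, 3807 and 3034 FPKM against 835, 1098 and 651, a log2 fold change of -2.09 ± 0.24 (limma adjusted p = 0.000834). H2BC12 was close to it at 3955, 3448 and 2719 FPKM against 772, 967 and 917 (-1.92 ± 0.22). H2BC8 was at 2499, 2160 and 1683 FPKM against 471, 585 and 437, and H2BC11 at 2309, 2085 and 1461 against 347, 485 and 398. In none of these 4 did the groups overlap, and shControl 1 was the highest and shControl 3 the lowest control library in each. That order held widely: shControl 1 was highest for 28 of the 30 tested members, shControl 3 lowest for 29 and shTRMT6 2 highest among knockdown libraries for 29.

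H2BC10 had the largest change of the H2B genes, from 1838, 1577 and 1362 FPKM to 219, 365 and 222. Its means were 5.93-fold apart (log2 fold change -2.59 ± 0.25, limma adjusted p = 0.000565). H2BC17, H2BC9, H2BC13 and H2BC14 had log2 fold changes between -2.38 and -2.20, and H2BC4, H2BC15 and H2BC7 between -2.15 and -1.84. The H2B genes on chromosome 1 changed less. H2BC18 was at 2229, 1891 and 1232 FPKM against 502, 706 and 571 (-1.56 ± 0.26), and H2BC21 at 1007, 825 and 523 against 192, 291 and 207 (-1.74 ± 0.28). The smallest was that of H2BU1, at 110, 111 and 91.8 FPKM against 23.5, 56.8 and 67.0, with no overlap but with the lowest knockdown library far from the other two (-1.19 ± 0.36, limma adjusted p = 0.0292). The call of H2BU1 was lost without shControl replicate 1 (limma adjusted p = 0.0780), without shControl replicate 2 (0.0615) and without shTRMT6 replicate 1 (0.0858, with a log2 fold change of -0.74). It was also lost when scaled without mitochondrial genes (0.0570) and with no low-value filter (0.0520).

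**Figure D2:**
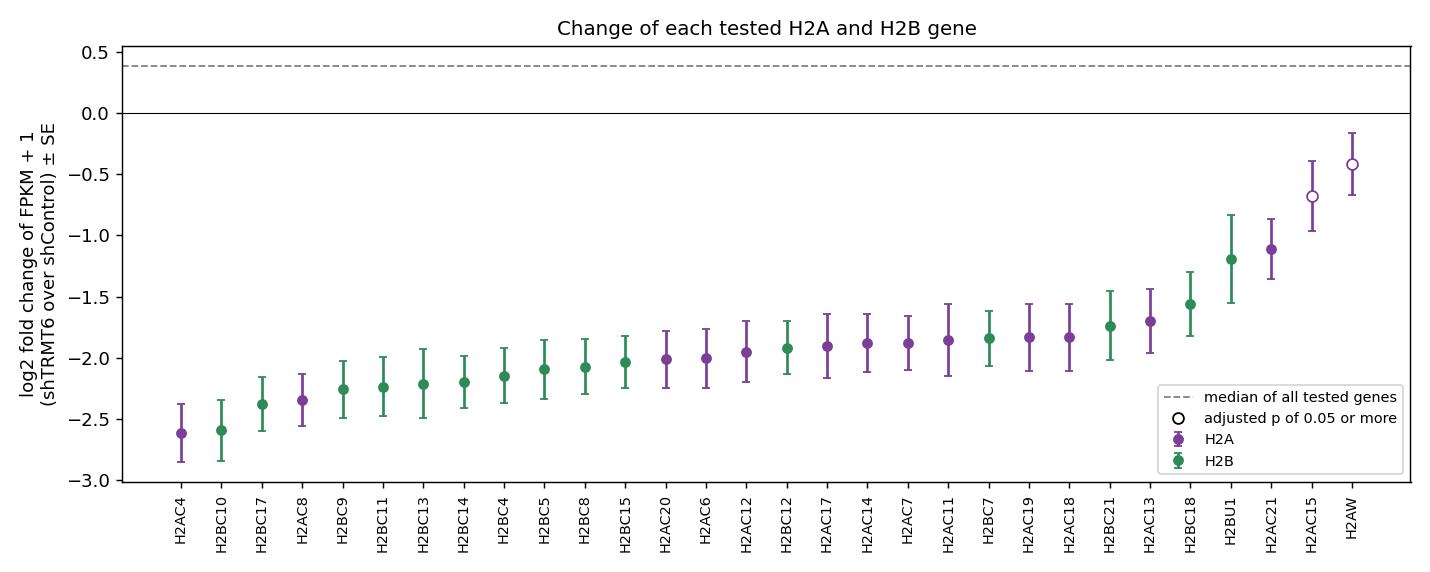
Log2 fold change of FPKM + 1 (shTRMT6 over shControl) with its standard error for the 30 tested members, colored by class. The 28 genes past the threshold run from -2.62 (H2AC4) to -1.11 (H2AC21), and H2AC15 and H2AW, at -0.68 and -0.41, do not pass it.

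Summed over the class, H2A went from 26474 ± 5348 FPKM in control to 7120 ± 1706 in knockdown libraries (SD, n = 3), 3.72-fold lower. The H2B sum was 21829 ± 4055 and 5237 ± 907, 4.17-fold lower. Together the members made 2.90% ± 0.320 of the control FPKM sum and 0.791% ± 0.152 of the knockdown sum. Neither sum's groups overlapped, and each exact two-sided permutation test gave p = 0.1, the smallest that 3 against 3 libraries allow (Benjamini-Hochberg adjusted p = 0.12 over 12 sums and ratios). The ratio of H2A to H2B differed by 0.15 ± 0.12 (log2, pooled SD) with overlapping groups, an exact permutation p of 0.3. Taken as a median over the tested genes of each class, each relative to its own mean over libraries, the difference between H2A and H2B was 0.30 (log2; exact permutation p = 0.2).

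Among the clusters, the first on chromosome 6 was lowered most, from 18236 ± 2993 to 4101 ± 736 FPKM (4.45-fold). The second went from 10718 to 2777 FPKM (3.86-fold) and the third from 8734 to 2275 FPKM (3.84-fold). On chromosome 1 the first cluster went from 10448 to 3108 FPKM (3.36-fold) and the second, at far lower levels, from 168 to 96.3 FPKM (1.74-fold). The sum over chromosome 6 relative to that over chromosome 1 was lower in the knockdown libraries by 1.25-fold (log2 difference -0.32 ± 0.084, pooled SD), without overlap (exact permutation p = 0.1). Taken as a median over tested genes the difference was -0.49. Members with a spliced annotated transcript (7) and those without (26) had overlapping ratios (-0.059, exact permutation p = 0.2).

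**Figure D3:**
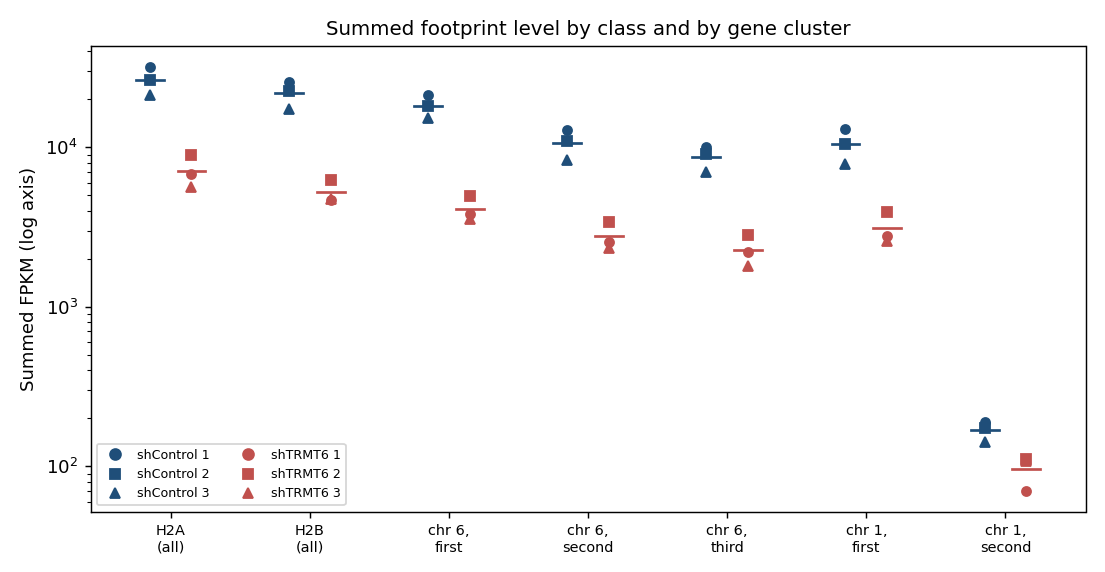
Summed FPKM of the H2A and H2B classes and of the 5 clusters in each library, on a logarithmic axis, with a line at the mean of 3 libraries. The shTRMT6 libraries lie below the shControl libraries in every sum, with the smallest distance in the second cluster on chromosome 1.

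The other replication-dependent histones were low too, to different extents. Of H3 genes 10 of 11 tested were lower (median log2 fold change -2.53), of H4 genes 12 of 12 (-1.77) and of linker H1 genes 3 of 3 (-2.91). The share of all tested genes that were lower was 9.04%. Relative to the H3 sum the H2A and H2B sum stood higher in the knockdown libraries by 0.59 ± 0.12 (log2, pooled SD), and relative to the H1 sum by 0.93 ± 0.43, which was 0.59 without shControl replicate 3. Relative to the H4 sum it was lower, with a log2 difference of -0.21 ± 0.092. None of the 3 comparisons had overlapping groups, and each gave an exact permutation p = 0.1.

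The share of each gene within its class was compared between the groups. Of 33 shares, 15 did not overlap between the groups, each with an exact permutation p = 0.1 and a Benjamini-Hochberg adjusted p of 0.22. Random relabelling of the libraries would leave a share without overlap with probability 0.1. The 33 include H2BC3, which had no footprints in any library. As no share passed after adjustment, the values below are descriptive. H2AC4 went from 3.78% to 2.28% of the H2A sum and H2AC8 from 11.2% to 8.32%. H2AC13, H2AC15, H2AC21 and H2AW took larger shares: H2AC21 went from 2.21% to 3.82%, H2AC15 from 0.431% to 1.01% and H2AW from 0.241% to 0.673%. In the H2B class H2BC7, H2BC18 and H2BC21 took larger shares, with H2BC18 going from 8.06% to 11.3%. H2BC4, H2BC9, H2BC10, H2BC11, H2BC14 and H2BC17 took smaller shares, with H2BC10 going from 7.33% to 5.05%. H2BC5, with the highest level of its class, had shares of 16.7% and 16.3%, with overlap.

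**Figure D4:**
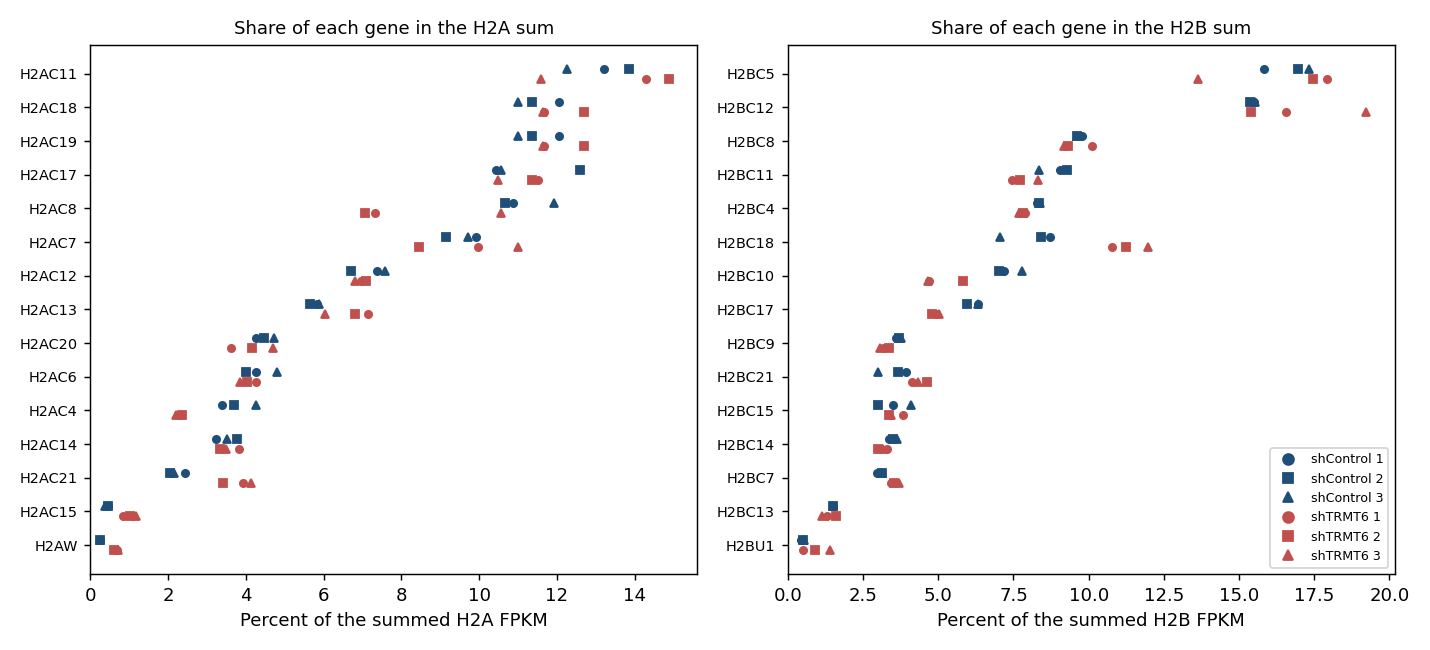
Share of the class sum (percent) of the tested H2A and H2B members in each library. The genes whose groups do not overlap include H2AC21 and H2BC18, higher in the shTRMT6 libraries, and H2AC4 and H2BC10, lower in them.

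The 10 divergent pairs let an H2A and an H2B gene with a common promoter region be set side by side. H2AC8 and H2BC8 had log2 fold changes of -2.35 and -2.08, and H2AC7 and H2BC7 of -1.88 and -1.84, with overlapping ratios. H2AC15 and H2BC15 differed most: the H2A gene was at -0.68 and the H2B gene at -2.03, a difference of 1.36 without overlap. H2AC13 and H2BC13 (0.51), H2AC14 and H2BC14 (0.32) and H2AC20 and H2BC21 (-0.27) also did not overlap. Each had an exact permutation p = 0.1 and an adjusted p of 0.25 over the 10 pairs. H2AW and H2BU1 differed by 0.78 with overlap. H2AC15 lies inside the annotated span of H2BC15 on the opposite strand, and all 193 bases between their starts lie in an annotated H2BC15 exon. The difference within that pair is uncertain for this reason. The octamer was present between the starts in 7 of the 10 pairs and had no exact match between H2AC15 and H2BC15, H2AW and H2BU1 or H2AC13 and H2BC13.

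**Figure D5:**
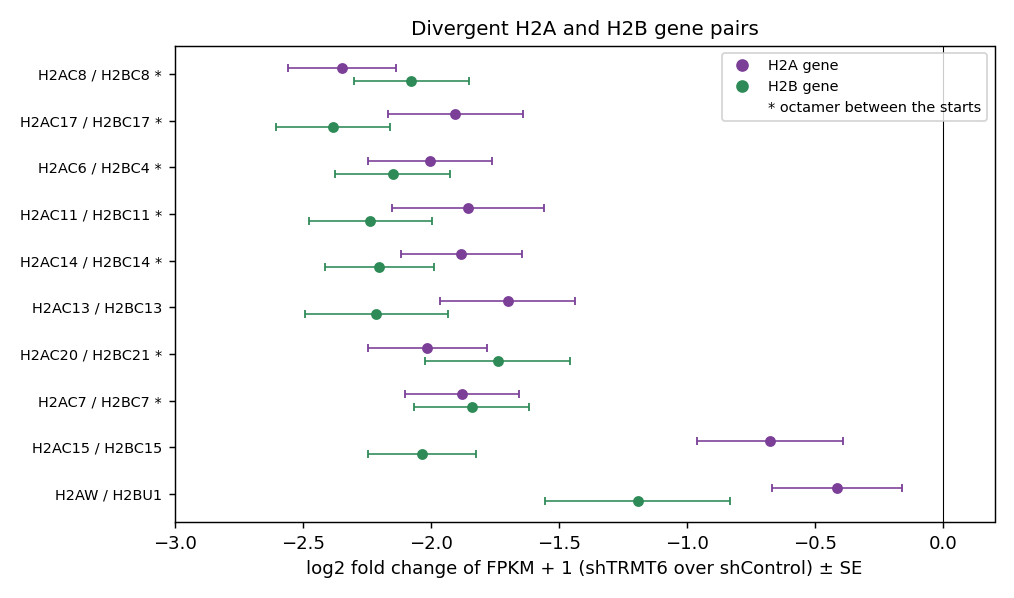
Log2 fold change of FPKM + 1 with its standard error for the H2A and H2B gene of each of 10 divergent pairs; an asterisk marks an octamer between the starts. H2AC15 lies apart from H2BC15 by 1.36, and the pair H2AC7 and H2BC7 by 0.037.

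H2BC3 was listed at 0 in every library. H2BC6 was at 0, 2.52 and 0.87 FPKM against 0, 0 and 1.46, and H2AC16 at 0, 0 and 1.37 against 0, 0.69 and 0. The coding sequences of these 3 genes are not mere repeats: 84.5%, 54.2% and 70.5% of their 28-base windows occur in no other annotated transcript. The processing notes name RSEM, but how it was set to divide footprints that match several copies is not given in the sources used here. Values of near-identical copies may thus be estimated parts of shared footprints and are uncertain. Different coding sequences of equal length were 77.6% to 92.6% identical within H2A and 84.8% to 94.2% within H2B. Copies of unequal length were not compared in this way. Among these, H2AC13 and H2AC14 shared 305 of their 28-base windows, and only 15.6% and 13.6% of their windows were unique. On chromosome 1 the unique part was 0% for H2AC18 and H2AC19, 8.48% for H2BC18 and 24.0% for H2BC21. It was 38.1% for H2BU1, 45.7% for H2AC20, 85.8% for H2AC21 and 87.7% for H2AW. Among tested members with at least 50% unique windows, 15 of 17 were lower (median log2 fold change -2.09), and below 50%, 13 of 13 (-1.88). Over the 30 tested members, which share their libraries, Pearson's r of log2 fold change with the share of unique windows was -0.062. With the log2 level in the control libraries r was -0.64, though that level also enters the fold change. H2AW, H2BU1 and H2AC15 had the lowest control means of the tested members, 63.9, 104 and 115 FPKM. The part of level in their small changes was not tested.

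Some copies also overlap other genes, and the counting is not stated to use strand. H2AC15 and H2AC16 lie inside the annotated span of H2BC15, H2AC15 on the opposite strand. H2AC17 shares 89.1% of its span with H3C12, whose mean was 136 FPKM in control and 45.3 in knockdown libraries. H2AC7 lies within a longer gene model on the same strand that was at 12.9 and 11.2 FPKM, and only 1.64% of its windows were unique. H2BC18 overlaps FCGR1A, which was listed at 0, but only 8.48% of the windows of H2BC18 were unique. H2AC21 overlaps BOLA1 by 27 bases. Values of the members that overlap an expressed gene are uncertain for this reason.

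All 30 tested members have short coding sequences, in the shortest decile of tested genes (75 to 540 bases), in which 21.8% of genes were lower and the median log2 fold change was -0.12. In the highest decile by level, which held 26 members, 35.4% were lower, with a median of -0.39. With the trends over level and length removed, 29 of 30 members were lower (median -1.52), against 13.3% of all tested genes.

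Among variants of H2A and H2B that are made outside S phase as well, 2 of 5 tested were lower and 0 higher. Of all tested genes 9.04% were lower and 26.5% higher. Median scaling gave 3 variants lower and 0 higher, beside 19.7% and 13.1% of all tested genes. H2AZ1, the variant of transcribed promoters, was at 2795, 2256 and 2382 FPKM against 905, 1020 and 880 (log2 fold change -1.40, limma adjusted p = 0.00145). H2AX, which is phosphorylated at DNA breaks, was at 269, 247 and 246 FPKM against 87.5, 153 and 93.9 (-1.23). Without median scaling the other tested variants did not pass: MACROH2A2 had a log2 fold change of 0.93 (limma adjusted p = 0.105), H2AZ2 of -0.56 and MACROH2A1 of -0.29.

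Of 17 factors that make or bind histone mRNA, 3 were lower and 4 higher, beside 9.04% and 26.5% of all tested genes. With median scaling 6 were lower and 3 higher, beside 19.7% and 13.1% of all tested genes. SLBP was lower, from 191 ± 44.9 to 107 ± 7.61 FPKM (-0.80, limma adjusted p = 0.0226), as was CSTF2, a cleavage factor (-1.44). ZNF473, a component of the U7-dependent processing complex, was higher, from 12.6 ± 3.73 to 62.8 ± 5.83 FPKM (2.27), and SYMPK, the scaffold of the cleavage complex, was higher as well (1.70). Of 10 chaperones and import factors of H2A-H2B, 2 were higher (KPNB1 at 0.81 and SUPT6H at 1.03) and 0 lower, beside 26.5% and 9.04% of all tested genes. With median scaling 3 were lower and 0 higher, beside 19.7% and 13.1%.

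Of 26 S phase genes, 8 were lower and 1 higher (median log2 fold change -0.33), beside 9.04% and 26.5% of all tested genes, and with median scaling 13 were lower, beside 19.7%. DUT, which clears dUTP, had a log2 fold change of -1.96, TYMS, which makes dTMP, of -1.75, and PCNA, the sliding clamp, of -1.52. The gene called higher was E2F1. Without median scaling 17 of the 26 did not pass the threshold, among them MCM2, MCM3, MCM4, MCM5, MCM6 and MCM7. The list's summed level ranged from 3205 to 5055 FPKM over control libraries and from 2063 to 2176 over knockdown libraries, and none of its genes was at 0 in all libraries. Their part in the lower H2A and H2B levels was not tested.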

How the data were processed

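Ribosome footprints of RKO cells were profiled in 3 shControl and 3 shTRMT6 libraries. Per the labels' protocols, lysates were treated with RNase I and small-RNA libraries were made from the protected fragments. The authors deposited 1 table of FPKM values per gene with 2 decimals; per the submitters' processing notes the tools were fastp, STAR and RSEM, with no version named, and the genome build is not given in the sources used here, nor is the annotation. Symbols and positions were taken from GENCODE 29 and RefSeq tables.

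The 11566 genes that reached 1 FPKM in 3 or more libraries were tested on log2(FPKM + 1) with limma 3.58.1 (R 4.3.3, trended empirical Bayes, no block), adjusted with Benjamini-Hochberg; fold changes on this scale understate low genes. Sums, ratios and shares were compared with exact permutation tests over libraries (scipy 1.17.1). The code was tested on simulated data. Depth was estimated from the steps of low FPKM values; 65.4% to 77.2% of these came within 0.1 of a whole read, so no count test was run. Replicate numbers were not used as pairs, since same-numbered deviations correlated at 0.012, 0.013 and 0.10. Differently numbered libraries were not correlated for comparison, so these values cannot decide whether the libraries were made in pairs.

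The members and gene lists were chosen with earlier results of these data known. Genes named with values were those with the highest control level in each class, the largest and smallest changes, equal copies and those not past the threshold, and at most 4 of each other list by smallest p. Alternatives were another pseudocount, other scalings, filters, a replicate block, removal of level and length trends, medians over tested genes, each relative to its own mean over libraries, and leaving out each library.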

Additional observations from a re-analysis of the deposited data

How the results depend on the processing

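Of 420 refits of single members, 409 kept both direction and side of the threshold, 6 gained a call (H2AC15 and H2AW) and 5 lost one (H2BU1). Members called lower numbered 27 to 29 when 1 library was left out. With the replicate block 28 members and 1065 genes of the table were lower, and the block changed no member's call. Median scaling moved the H2A sum to -2.40, the H2B sum to -2.55, the chromosome 6 sum to -2.54 and the chromosome 1 sum to -2.22 (log2). Taken as a median over tested genes, H2A against H2B was 0.30, chromosome 6 against chromosome 1 -0.49 and members against all other replication-dependent histones 0.18. Leaving out 1 library moved H2A against H2B between 0.10 (without shTRMT6 replicate 1) and 0.25 (without shTRMT6 replicate 3). The fall in the members' share was 2.11 percentage points of FPKM (a value of -2.11) and -1.09 points of estimated footprints. Over the table, 2275 genes were lower and 1520 higher with median scaling, 1700 and 1602 with quantile normalization, and 1526 were higher with trends removed; without 1 library the counts ran from 587 to 1428 lower and from 1828 to 3270 higher, with 587, 684 and 599 lower without shTRMT6 replicate 1, shControl replicate 1 and shTRMT6 replicate 3, and 1957 and 1828 higher without shTRMT6 replicates 1 and 3. The cause of these shifts was not tested. With 3 libraries per group no exact permutation test can go below 0.1, and depth limits the 3 members near 0.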

Other observations

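Of 17 enzymes that add or remove ubiquitin on H2A and H2B or phosphorylate them, 2 were lower and 4 higher (limma, adjusted p under 0.05), counts near the 9.04% lower and 26.5% higher of all tested genes. With median scaling 6 were lower and 2 higher, beside 19.7% and 13.1%. ATXN7L3, an adaptor of the H2B deubiquitinase, was at 28.3, 43.6 and 21.7 FPKM with the control hairpin and at 130, 119 and 184 with knockdown (log2 fold change 2.21, limma adjusted p = 0.00142). WAC, a partner of the H2B ubiquitin ligase, went from 84.8 ± 25.9 to 209 ± 44.8 FPKM (1.31). UBE2A, an E2 enzyme of H2B ubiquitination, went from 243 ± 22.4 to 141 ± 8.57 FPKM (-0.78), and RNF2, the H2A ubiquitin ligase of Polycomb, from 70.2 ± 7.95 to 35.8 ± 4.16 FPKM (-0.95). In these 4 genes the groups did not overlap.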
